A study of Mus musculus with 12 samples.

Results

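The comparison set vehicle-treated mouse embryonic fibroblasts at 240 h against the same kind of culture at 96 h. It used 6 of the 12 libraries of the series, the 3 DMSO replicates at each time, chosen by their treatment and time labels, and all 26305 genes with an identifier, of which 13499 had enough counts to be tested. The cells were primary fibroblasts of male C57BL/6 wild-type embryos at embryonic day 13.5, grown with 10% serum under 3% oxygen and 5% carbon dioxide. DMSO is the vehicle. Cultures of the other 6 libraries got 10 µM of WM-2474, a compound that the submitters describe as an inactive control, for the same times. The submitters call the 3 replicates of a group biological. The labels do not say how many embryos were pooled or whether cultures were split or refed between the times. No untreated culture was analysed here, so exposure to the solvent and age of the culture cannot be told apart.

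Embryonic fibroblasts secrete the collagen-rich matrix of connective tissue, and on a stiff plastic surface they can take on contractile filaments of the smooth muscle kind, as myofibroblasts do. Their division depends on serum growth factors and slows as a culture ages, when the inhibitors encoded by Cdkn1a and Cdkn2a accumulate. Their sterol and fatty acid enzymes are set by SREBP transcription factors, which respond to the sterol content of the membrane.

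Library totals were 10961741 to 16148590 counts at 96 h, and 7313007, 7701112 and 26019167 counts in replicates 1, 2 and 3 at 240 h. Values below are CPM, the counts scaled to a common library size with TMM factors, and log2 fold changes of 240 h over 96 h with their standard errors. A floor of 3 counts per library was 0.115 to 0.41 CPM. All 10 fibroblast markers were present above this floor in every library, with a summed level of 31748 to 37283 CPM at 96 h and 48084 to 49595 CPM at 240 h. Markers of macrophages summed to 7.3 to 12.3 CPM, those of endothelium to 3.73 to 7.24 CPM, those of epithelium to 2.63 to 4.54 CPM at 96 h and 1.27 to 2.21 CPM at 240 h, and those of T cells to under 1 CPM. Schwann cell markers summed to 4.95 to 9.39 CPM. Neural markers had the largest sum outside fibroblasts, 151 to 171 CPM at 96 h and 170 to 184 CPM at 240 h. Of these 6 markers 3 were above the floor in every library, and 1 of the 4 tested was called higher. The 240 h replicates 1 and 2, the shallow ones, differed from the others in a trace of B-lineage RNA: the 8 B-lineage markers other than Ebf1 summed to 5.8 and 7.47 CPM there, and to 0.762 to 1.41 CPM in the other 4 libraries. Xist, the RNA of the inactive X chromosome, was likewise at 5.24 and 4.48 CPM in those replicates and at 0.281 to 0.885 CPM in the others, while the Y-linked Ddx3y was at 74.5, 59.8 and 62.5 CPM at 96 h and 70.3, 76.1 and 80.7 CPM at 240 h and was called higher (log2 0.21 ± 0.08, adjusted p = 0.0393) although the times overlap. Ddx3y lost that call without any 1 of replicates 2 and 3 at either time (log2 0.15 to 0.21). The main counts are therefore also given for 240 h replicate 3 alone. So are the medians of the contractile, sterol synthesis, mitosis and fibrillar collagen lists and of the HoxA cluster. Other list medians with that replicate alone are not printed, and some moved. That of the TGF-beta and BMP list was 0.03 with all libraries and -0.08 with replicate 3 alone, and that of the Notch list 0.17 and 0.33.

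Of the 13499 genes, 2364 (17.5%) were higher and 2330 (17.3%) were lower at 240 h at an adjusted p under 0.05. These shares are the background for the counts of list members below. A test against a fold of 1.5 called 224 genes higher (1.66%) and 227 lower (1.68%). In 45.7% of all tested genes, called or not, the libraries of the 2 times did not overlap (3089 higher and 3076 lower). Most changes were small: the median called gene was 1.25-fold higher or 1.34-fold lower, and 237 and 351 called genes changed over 2-fold in the respective direction. Relative to all counts in the library, without TMM factors, the median of all genes moved by -0.12 on the log2 scale, and the split became 1190 higher and 4381 lower. The changes below are relative to the TMM scale. All 4694 called genes kept their direction with replicate 3 as the only 240 h library, which shares its 96 h libraries and itself with the full comparison. That fit called 1468 genes higher (10.9%) and 1383 lower (10.2%), and 1437 and 1340 of these were also called with all libraries.

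The 4 genes chosen as markers of the time change lay far apart at the 2 times. Mcam encodes CD146, an adhesion molecule of pericytes and smooth muscle. It stood at 99, 101 and 101 CPM at 96 h and 316, 339 and 346 CPM at 240 h. No library of one time came near the other, and the level was 3.34-fold higher at 240 h (log2 1.74 ± 0.06, adjusted p = 3.13e-17). Col15a1, a collagen at the border of basement membranes, was at 9.91, 11.2 and 13 CPM at 96 h and 69, 62.3 and 67 CPM at 240 h, which was 5.86-fold higher (log2 2.55 ± 0.09, adjusted p = 3.71e-17). Scd1 encodes the desaturase that makes monounsaturated fatty acids. It was at 894, 821 and 935 CPM at 96 h and 329, 300.1 and 320.1 CPM at 240 h, or 2.79-fold lower (log2 -1.48 ± 0.05, adjusted p = 3.71e-17). Lss, the lanosterol synthase, was at 300.2, 296 and 321 CPM at 96 h and 119, 115 and 123 CPM at 240 h, or 2.56-fold lower (log2 -1.36 ± 0.05, adjusted p = 9.98e-17). Replicate 3 alone gave log2 fold changes of 1.79, 2.57, -1.46 and -1.32 for Mcam, Col15a1, Scd1 and Lss.

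**Figure D1:**
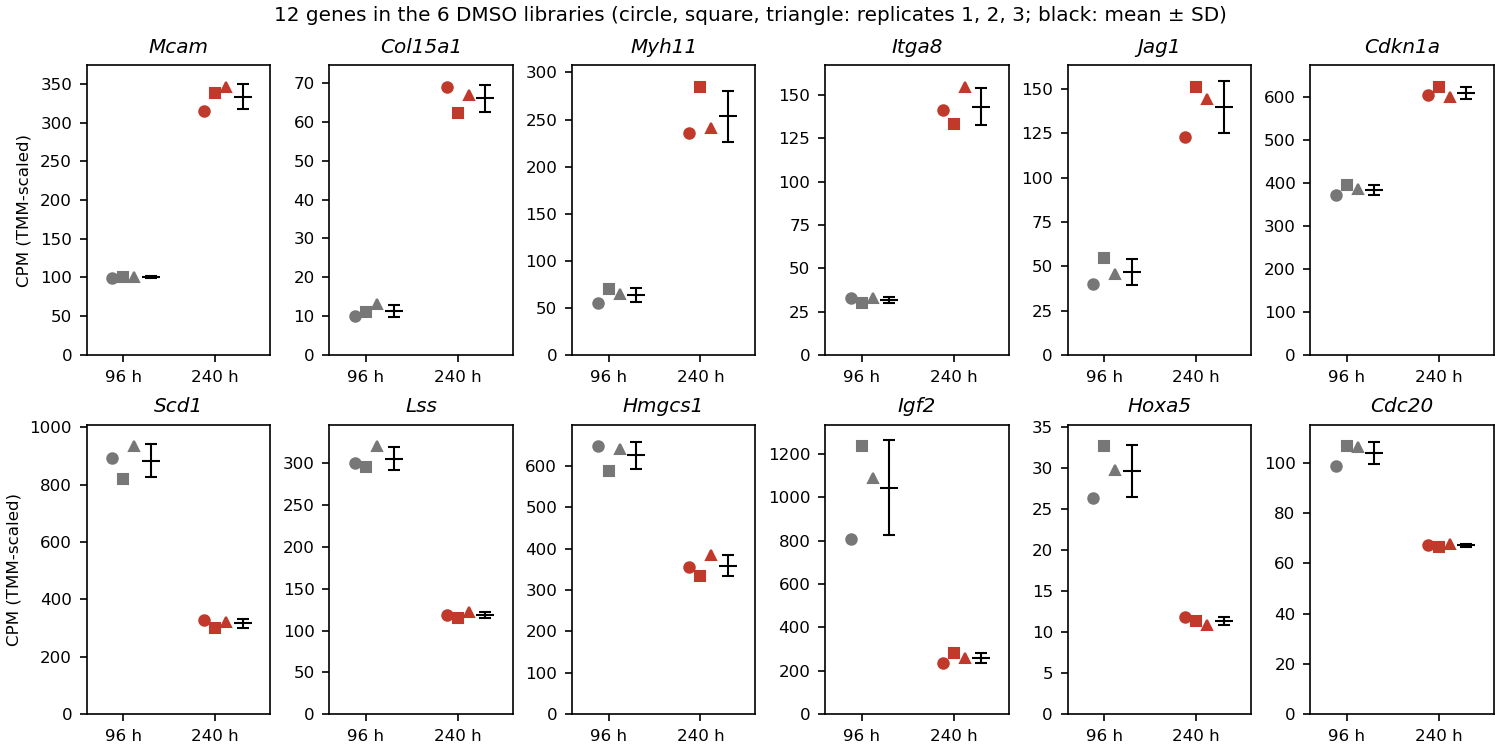
CPM of 12 genes in the 6 DMSO libraries, with 96 h in grey and 240 h in red, replicates as circle, square and triangle, and the mean ± SD in black; each vertical axis starts at 0. For all 12 genes the libraries of the 2 times do not overlap, as in 45.7% of all tested genes. The shallow 240 h replicates 1 and 2 lie beside replicate 3.

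The 12 largest rises among genes of at least 5 CPM in one group were led by Heyl, a transcription factor induced by Notch receptors. Its level was 0.0590, 0.702 and 0.591 CPM at 96 h and 3.68, 6.65 and 8.34 CPM at 240 h, where the value of 96 h replicate 1 stands for 1 count. Those of Ramp1, a partner subunit of the receptor for the vasodilator CGRP, were 1.42, 1.14 and 1.04 CPM at 96 h and 9.05, 5.02 and 6.29 CPM at 240 h. Sema5b, a guidance cue, went from 3.67 ± 0.450 to 18.2 ± 2.20 CPM (SD, n = 3), and Itga8, the integrin chain that binds nephronectin, from 31.8 ± 1.67 to 143 ± 10.8 CPM. Aldh1a3, an enzyme that makes retinoic acid, went from 2.98 ± 0.498 to 12.5 ± 0.666 CPM. Others were Fndc1 (2.18), Susd2 (2.15), Galnt16 (2.19), Ccdc88c (2.39), Sprr2k (2.45) and Col10a1 (2.29), given as log2 fold changes. Fndc1 and Col10a1 had the widest standard errors of these, 0.30 and 0.50, and Col10a1 missed the threshold with 240 h replicate 3 alone (log2 1.88).

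The 12 largest falls included Msln, a surface protein of mesothelium. It stood at 23.1, 18.1 and 14.4 CPM at 96 h and 1.70, 2.44 and 2.29 CPM at 240 h. All 4 mesothelial markers together summed to 19.3 to 37.6 CPM at 96 h and to 3.12 to 4.95 CPM at 240 h. Msln made up most of that sum at 96 h. Of the 4 markers 3 were tested, all with negative log2 fold changes, and Msln alone was called lower. In bulk RNA, fewer cells of a type and less RNA per cell cannot be told apart. Arhgap36, which activates Gli factors, went from 30.6 ± 9.17 to 2.73 ± 0.802 CPM, and Cdkn1c, the imprinted cell cycle inhibitor p57, from 61.6 ± 7.31 to 13.7 ± 2.85 CPM. The neutrophil attractant Cxcl5 was at 26.9 ± 5.73 CPM at 96 h and 6.02 ± 1.18 CPM at 240 h, and Hhip, the decoy receptor of Hedgehog ligands, at 5.47 ± 1.11 CPM at 96 h and 1.38 ± 0.651 CPM at 240 h. Kng2 (log2 -3.60), Enpep (log2 -2.49), Cbr2 (log2 -2.42), Nell2 (log2 -2.29), Sim2 (log2 -2.24), Hid1 (log2 -2.16) and Itih2 (log2 -2.07) fell as well, all from under 25 CPM at 96 h.

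Ranked by amount of RNA, the leading genes were other ones. The 6 largest gains in CPM were those of Thbs1 (9596 ± 523 to 16922 ± 442 CPM), Fn1 (8023 ± 729 to 13501 ± 298 CPM), Col1a1 (12443 ± 1661 to 16443 ± 439.6 CPM), Col1a2 (6585 ± 555 to 9306 ± 108 CPM), Acta2 (2842 ± 107 to 5489 ± 369 CPM) and Col5a1 (2609 ± 237 to 5239 ± 155 CPM). The 6 largest losses were those of H19 (2207 ± 266 to 574 ± 28.5 CPM), Scd2 (3069 ± 67.3 to 1718 ± 51 CPM), Igf2 (1043 ± 218 to 259 ± 21.9 CPM), Scd1 (883 ± 57.8 to 316 ± 14.8 CPM), Acly (883 ± 34.8 to 388 ± 19.3 CPM) and Fasn (921 ± 63.2 to 479.5 ± 29.9 CPM). Each of these 12 genes had libraries that did not overlap between the times, as did 45.7% of all tested genes.

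**Figure D2:**
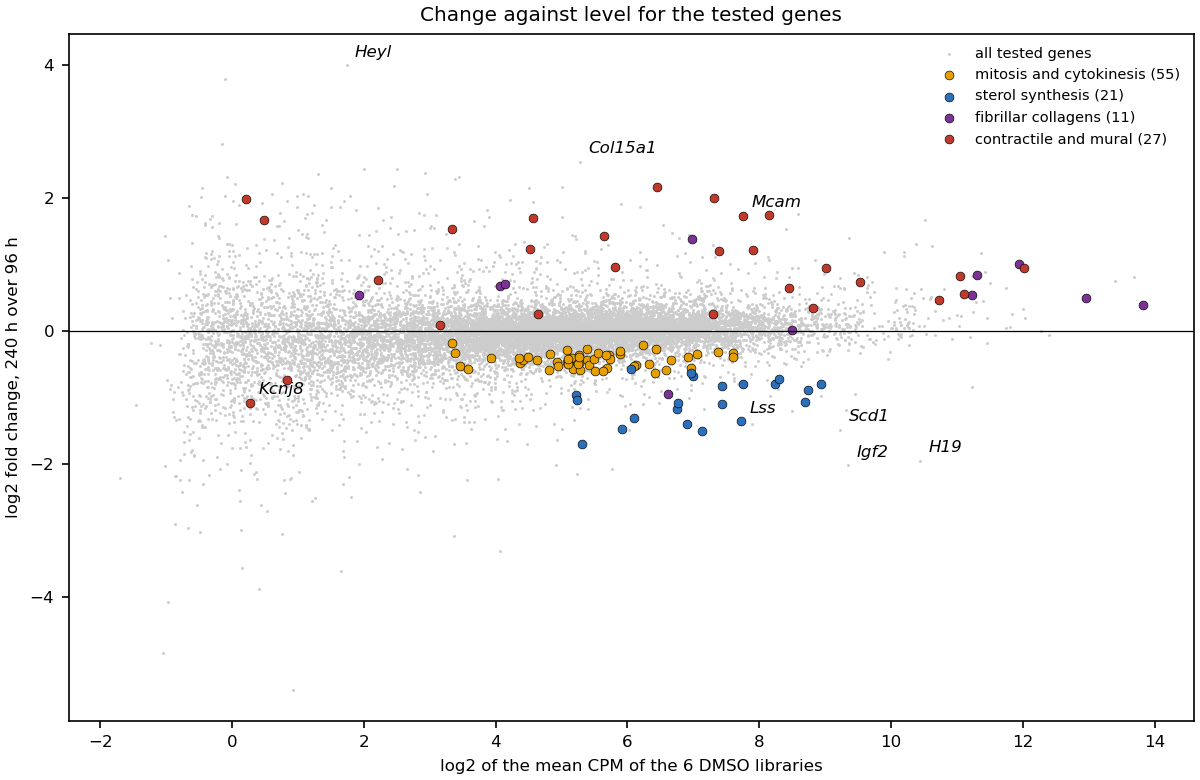
Log2 fold change of 240 h over 96 h (vertical axis) against the log2 of the mean CPM of the 6 DMSO libraries (horizontal axis); grey points are all 13499 tested genes and coloured points the members of 4 gene lists. Sterol synthesis genes (blue) and mitosis genes (orange) lie below 0, the contractile genes (red) lie above 0 except Kcnj8 and Abcc9, and mitosis genes lie within a narrow band.

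Genes of the contractile apparatus and of mural cells, the smooth muscle cells and pericytes around vessels, rose. Of 27 tested members 24 were higher and 1 was lower, with 17 past a fold of 1.5 and a median log2 fold change of 0.96, against -0.01 over all tested genes. Smooth muscle actin Acta2 was at 2735, 2950 and 2842 CPM at 96 h and 5142, 5876 and 5450 CPM at 240 h. Myh11, the smooth muscle myosin heavy chain, was at 55.4, 70.1 and 64.9 CPM at 96 h and 235, 285 and 241 CPM at 240 h. Both genes were higher in every 240 h library, and 45.7% of all tested genes also had no overlap between the times. The log2 fold changes were 0.95 ± 0.05 for Acta2 and 2.00 ± 0.11 for Myh11. Actg2, the enteric actin, rose from 129.8 ± 14.3 to 435 ± 45 CPM, the actin nucleator Lmod1 from 102 ± 4.28 to 235 ± 13.8 CPM and the actin-binding Tagln from 1513 ± 26.1 to 2700 ± 191 CPM. Per kilobase of exon, Acta2 had the highest level of the list at 240 h, 3084 RPKM, followed by Tagln with 1702 and Cald1 with 649. Kcnj8, a pore subunit of the potassium channel of pericytes, was the member that fell (log2 -1.07 ± 0.34, adjusted p = 0.0147). Its partner Abcc9 did not pass (log2 -0.73 ± 0.30, adjusted p = 0.0633), and both stayed under 3 CPM. Kcnj8 lost its call in DESeq2 (log2 -1.04), after thinning to equal depth (-0.87), and without 96 h replicate 3 (-0.92) or 240 h replicate 3 (-0.81). Abcc9 was called lower with library totals (log2 -0.85), in limma-voom (-0.82) and with the replicate block (-0.77). It was also called lower without 96 h replicate 1 (-0.95) or 240 h replicate 1 (-0.94). Summed over the list, 1.04% ± 0.00740 of the counts at 96 h and 1.68% ± 0.0852 at 240 h came from these genes. With 3 libraries a side, a two-sided exact permutation test has a smallest possible p of 0.1, which this share and the other list shares printed below reached.

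The wider actin cytoskeleton and focal adhesion list had 21 of 37 members higher and 8 lower. Csrp1, a partner of serum response factor, rose from 519.6 ± 13.9 to 930.2 ± 41 CPM and the adhesion protein Tns1 from 359 ± 9.28 to 653 ± 31.3 CPM. Cotl1 (log2 -0.88) and Pdlim2 (log2 -0.54) fell. Cytoplasmic actin Actb, the highest of the list per length, was at 3373 ± 162 CPM at 96 h and 3507 ± 103 CPM at 240 h with a log2 fold change of 0.06 ± 0.04 that did not pass. Targets of serum response factor and YAP, the transcription factors that respond to actin tension, had 14 of 24 members higher and 4 lower. Among them Myl9, the light chain of smooth muscle myosin, rose from 351 ± 16.5 to 681 ± 34.9 CPM, and Ccn2, the connective tissue growth factor, from 713 ± 9.92 to 1634 ± 125 CPM. Foxf2 (log2 -1.42) and Amotl2 (log2 -0.18) fell, Foxf2 short of the threshold without 240 h replicate 3 (log2 -1.07) and Amotl2 with that replicate alone (log2 -0.16).

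Integrins, the receptors that tie this cytoskeleton to the matrix, had 10 of 18 tested members higher (55.6%) and 4 lower (22.2%). Over all tested genes these shares were 17.5% and 17.3%. The integrins' share of counts went from 0.351% ± 0.00884 to 0.556% ± 0.0321. Itgb1, the beta chain common to most collagen and fibronectin receptors, was at 1810, 1701 and 1656 CPM at 96 h and 2866, 3317 and 3016 CPM at 240 h. The alpha chain Itga1, which binds collagen, rose from 20.5 ± 0.742 to 42.3 ± 0.819 CPM, and the fibronectin receptor chain Itga5 from 434 ± 7.23 to 761 ± 54.4 CPM. The laminin receptor chain Itga3 went the other way, at 43.2, 53.8 and 46.8 CPM at 96 h and 12.5, 15.3 and 10.1 CPM at 240 h, a fall of 4.02-fold. Itgb7 fell too (log2 -2.56), from 3.85 ± 1.29 to 0.762 ± 0.259 CPM.

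Notch signalling passes between touching cells, from a ligand such as Jag1 to a Notch receptor, and switches on the Hes and Hey repressors. The ligand Jag1 was at 40, 54.4 and 45.5 CPM at 96 h and 123, 151 and 144 CPM at 240 h. Among receptors Notch3, the one of mural cells, rose from 38.4 ± 4.54 to 73.9 ± 3.39 CPM and Notch1 from 36.1 ± 4.70 to 51.5 ± 4.41 CPM, and Notch2 was lower (log2 -0.18 ± 0.06). All targets in the list that were tested rose: Heyl, Hey2 (0.805 ± 0.223 to 4.16 ± 0.681 CPM), Hey1 (0.785 ± 0.169 to 3.45 ± 0.678 CPM), Nrarp (0.402 ± 0.0937 to 1.10 ± 0.489 CPM) and Hes1 (75.2 ± 6.66 to 95.5 ± 10.5 CPM). Of the Hey genes and Nrarp every level stayed under 9 CPM, and without 240 h replicate 3 the rise of Nrarp was 1.13 and missed the threshold. Notch2 missed it without 96 h replicate 2 (log2 -0.13) or 240 h replicate 3 (-0.18). Rbpj, the DNA-binding partner of the receptor, was slightly lower (log2 -0.21), but short of the threshold with 240 h replicate 3 alone (log2 -0.19), as was Notch2 (-0.18). In all, 8 of 18 members (44.4%) were higher and 3 (16.7%) lower, and 7 did not pass. Over all tested genes the shares were 17.5% and 17.3%.

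The fibrillar collagens, which form the load-bearing fibres of connective tissue, had 8 of 11 members higher and 0 lower, with a median log2 fold change of 0.54. Col1a1, the most abundant, was at 10889, 14193 and 12249 CPM at 96 h and 15936, 16700 and 16695 CPM at 240 h. Its 96 h libraries were spread, and the difference was the smallest of those that passed (log2 0.40 ± 0.11, adjusted p = 0.0209). Col1a1 missed the threshold without 96 h replicate 1 (log2 0.31), 96 h replicate 3 (0.39), 240 h replicate 2 (0.39) or 240 h replicate 3 (0.39), with 240 h replicate 3 alone (0.42) and with library totals (0.28). Col5a1, a chain that sets fibre width, was at 2378, 2852 and 2596 CPM at 96 h and 5231, 5398 and 5088 CPM at 240 h. Col5a2 rose from 1947 ± 75.9 to 2830 ± 115 CPM. Col2a1, the collagen of cartilage, was at 129 ± 47.5 CPM at 96 h and 67 ± 22.6 CPM at 240 h and did not pass (log2 -0.95 ± 0.45, adjusted p = 0.146). Without 240 h replicate 3 the list's median was 0.62, and with replicate 3 alone it was 0.52. The 240 h replicate 3 alone called 7 members higher. The share of counts from fibrillar collagens was 2.72% ± 0.281 at 96 h and 3.63% ± 0.0488 at 240 h.

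Other matrix classes moved the same way for the most part. Of the basement membrane genes 16 of 26 were higher and 2 lower. These included Sparc, a collagen-binding glycoprotein (2169 ± 127 to 3604 ± 58.1 CPM), and both main chains of collagen IV, Col4a1 (1102 ± 65.1 to 1716 ± 66.4 CPM) and Col4a2 (943 ± 41 to 1459 ± 35 CPM), while the calcium-binding Smoc2 fell (56.4 ± 3.21 to 34.1 ± 0.707 CPM). Of the remaining collagens 6 of 15 were higher and 1 lower. Col6a3, a chain of the beaded collagen VI filament, was at 728, 722 and 638 CPM at 96 h and 2366, 2029 and 2278 CPM at 240 h, a 3.20-fold rise, whereas its partner chains Col6a1 and Col6a2 rose 1.57-fold and 1.76-fold. Col12a1, which coats fibres, went from 1920 ± 67.3 to 3555 ± 154 CPM. Elastic fibre genes had 10 of 24 higher (41.7%) and 3 lower (12.5%), against 17.5% and 17.3% over all tested genes. Fbn1, the microfibril backbone, rose (1403 ± 56.2 to 2183 ± 99.4 CPM). Fbln1 (log2 -0.51) and Emilin1 (log2 -0.28) fell, the latter short of the threshold with 240 h replicate 3 alone (log2 -0.23). Among small leucine-rich proteoglycans 4 of 10 (40%) were higher and 2 (20%) lower. Bgn, which binds collagen I, was at 2668 ± 65 CPM at 96 h and 4193 ± 47.3 CPM at 240 h. Podnl1 (log2 -0.95) and Ogn (log2 -0.53) were lower. Ogn missed the threshold with 240 h replicate 3 alone (log2 -0.53).

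The list of matricellular proteins, which signal from the matrix without bearing load, also holds structural glycoproteins such as fibronectin, Fn1. Its share of counts was 2.83% ± 0.117 at 96 h and 4.34% ± 0.0528 at 240 h. Of 32 members 15 (46.9%) were higher, 8 of them past a fold of 1.5, and 6 (18.75%) were lower. Over all tested genes the shares were 17.5% and 17.3%. Thbs1, which activates latent TGF-beta, was at 9514, 10155 and 9119 CPM at 96 h and 16586, 17423 and 16757 CPM at 240 h. Postn, a product of activated fibroblasts, was at 1771, 1516 and 1581 CPM at 96 h and 3798, 3418 and 3813 CPM at 240 h. Tgfbi fell, at 111, 126 and 124 CPM at 96 h and 58.7, 58.8 and 54.8 CPM at 240 h, against the direction of the others named here. Enzymes that modify and fold collagen had 16 of 23 members higher and 1 lower, or 10 higher and 2 lower with library totals. The 1 was Plod2 (log2 -0.16 ± 0.06), which missed the threshold without any 1 of 96 h replicates 1 and 2 and 240 h replicates 1 and 2 (log2 -0.15 to -0.13) and with 240 h replicate 3 alone (-0.10). The crosslinking oxidase Loxl2 was at 565, 577 and 582 CPM at 96 h and 1269, 1370 and 1314 CPM at 240 h, and the prolyl hydroxylase chain P4ha3 went from 81.1 ± 6.23 to 166 ± 6.14 CPM. Of matrix proteases and their inhibitors 15 of 32 (46.9%) were higher and 6 (18.75%) lower. The metalloproteinase inhibitor Timp3 rose from 917 ± 52.9 to 2221 ± 54.4 CPM and the protease Adamts12 from 49.2 ± 3.35 to 106 ± 3.80 CPM, while Mmp16 (log2 -0.82) and Adamts1 (log2 -0.42) fell.

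**Figure D3:**
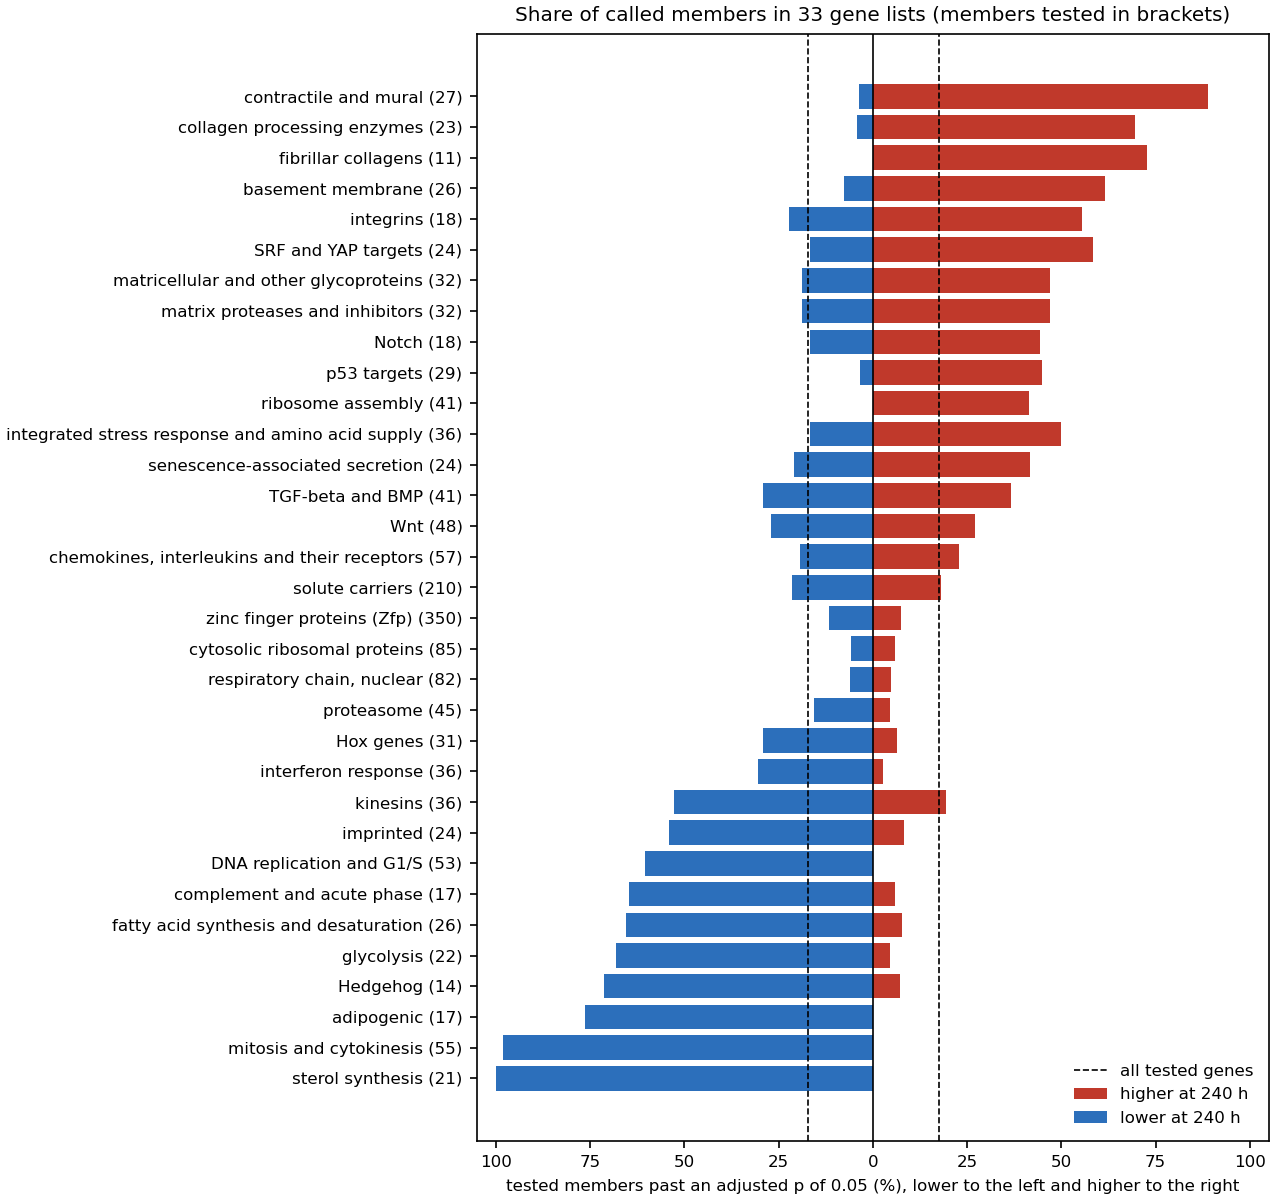
Percent of tested members called higher (red, to the right) and lower (blue, to the left) at 240 h in 33 gene lists, with the number tested in brackets and dashed lines at the shares over all tested genes, 17.5% and 17.3%. Sterol synthesis, mitosis, adipogenic and DNA replication lists have no red bar, fibrillar collagens and ribosome assembly have no blue bar, and ribosomal, respiratory chain and zinc finger lists lie inside both dashed lines.

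The sterol synthesis pathway fell as a whole. All 21 tested enzymes were lower at 240 h, 18 of them past a fold of 1.5, with a median log2 fold change of -1.04 and a range of -1.70 (Tm7sf2) to -0.56 (Lbr). Hmgcs1, which makes HMG-CoA, an early intermediate of the pathway, and had the highest level per length of the list, was at 648, 587 and 641 CPM at 96 h and 356, 334 and 385 CPM at 240 h. Fdps, the farnesyl diphosphate synthase, was at 234, 229 and 243 CPM at 96 h and 115, 103 and 113 CPM at 240 h. The squalene epoxidase Sqle was 1.64-fold lower. For the late enzymes Lss and Dhcr7 the factors were 2.56 and 2.46. No 240 h library reached the lowest 96 h library for any of the enzymes named here, and 45.7% of all tested genes also had no overlap. The share of counts from the pathway went from 0.519% ± 0.0295 to 0.246% ± 0.0118.

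The promoter of Hmgcs1 shows the letters by which SREBP-regulated genes are known. The stretch printed here, from RefSeq with the GRCm38.p6 build, is chr13:119690104-119690323 on the plus strand and ends upstream of the annotated start. Capitals mark the core of the sterol regulatory element, CACCCCAC, 136 bases before the start, and 3 CCAAT boxes, found here as their reverse complement ATTGG at 237, 176 and 45 bases.
Hmgcs1: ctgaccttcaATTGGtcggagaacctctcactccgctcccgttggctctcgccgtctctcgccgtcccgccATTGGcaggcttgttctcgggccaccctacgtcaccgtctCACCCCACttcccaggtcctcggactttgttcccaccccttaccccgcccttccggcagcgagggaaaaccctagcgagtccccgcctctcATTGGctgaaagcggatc
Each window of 300 bases, 250 before to 50 after a start, was searched on both strands. RefSeq gave promoters for 16 of the 21 sterol genes, 19 windows in all. Of these 15 (78.9%) held CCAAT and 2 (10.5%) held CACCCCAC, against 37.4% and 2.87% of all 32851 mouse promoters. For the contractile list the shares were 37.5% and 12.5% of 24 windows. These are matches of letters and not shown to be bound.

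Sterol sensing, uptake and efflux moved in both directions, with 6 of 20 members higher and 8 lower. Insig1, the sterol sensor that holds SREBP in the endoplasmic reticulum, went from 344 ± 28.4 to 129 ± 13.1 CPM, the import receptor Scarb1 from 177 ± 9.96 to 103 ± 4.43 CPM and the sterol carrier Stard4 from 103 ± 3.46 to 47.5 ± 2.11 CPM. Ch25h, which makes 25-hydroxycholesterol, an inhibitor of SREBP processing, was at 6.55, 5.97 and 8.28 CPM at 96 h and 19.5, 26.9 and 22.5 CPM at 240 h, the largest rise of the list. Vldlr also rose (log2 0.30). The factors Srebf1 (log2 -0.43 ± 0.06) and Srebf2 (log2 -0.46 ± 0.06) were themselves lower.

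Fatty acid synthesis and desaturation had 17 of 26 members lower, 10 past a fold of 1.5, and 2 higher. The citrate lyase Acly was at 868, 859 and 923 CPM at 96 h and 408, 369 and 387 CPM at 240 h. Fatty acid synthase Fasn was at 853, 933 and 977 CPM at 96 h and 471, 455 and 513 CPM at 240 h. Scd2, the desaturase with the highest level per length, was at 2998, 3076 and 3132 CPM at 96 h and 1733, 1662 and 1761 CPM at 240 h. Elovl7 (0.844 ± 0.140 to 1.84 ± 0.249 CPM) and Acsl5 (65.2 ± 3.04 to 75.3 ± 4.41 CPM) rose, but Acsl5 missed the threshold without any 1 of 96 h replicates 2 and 3 and 240 h replicates 1 and 2 (log2 0.16 to 0.18). With 240 h replicate 3 alone neither passed (log2 0.93 for Elovl7 and 0.11 for Acsl5). The share of counts from the list was 0.829% ± 0.0262 at 96 h and 0.418% ± 0.0138 at 240 h. Enzymes that break fatty acids down had 3 of 26 members higher and 9 lower, with Acadvl at 0.40 and Acadm at -0.46. The adipogenic list, which shares lipid genes with these, had 13 of 17 members lower and 0 higher. The transcription factor Cebpd was at 79.3, 82.5 and 96.3 CPM at 96 h and 42.6, 32.6 and 41.3 CPM at 240 h. The lipid droplet protein Plin4 went from 12.5 ± 2.11 to 4.33 ± 1.05 CPM.

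Glycolytic genes fell by small amounts. In glycolysis 15 of 22 members were lower and 1, the glucose transporter Slc2a3, was higher (log2 0.50; 0.44 and short of the threshold without 240 h replicate 3). Aldoc was at 26, 27 and 29 CPM at 96 h and 9.90, 6.92 and 8.90 CPM at 240 h and was the member past a fold of 1.5. Eno1 went from 821 ± 44.5 to 657 ± 7.19 CPM, and the abundant Pkm, Ldha and Aldoa had log2 fold changes of -0.17, -0.12 and -0.21. That of Ldha missed the threshold without any 1 of 96 h replicates 1 and 2 and 240 h replicates 1 and 3 (log2 -0.12 to -0.10) and with 240 h replicate 3 alone (-0.15). Of the citric acid cycle genes 5 of 24 (20.8%) were lower and 2 (8.33%) higher, against 17.3% and 17.5% over all genes. The largest fall was that of Idh1 (259 ± 10 to 149 ± 3.71 CPM), the cytosolic enzyme that supplies NADPH. Hypoxia-responsive genes had 4 of 25 members higher (16%) and 8 lower (32%). The vasodilator peptide Adm was at 92.5, 94.7 and 100.4 CPM at 96 h and 38.2, 31.5 and 33.9 CPM at 240 h, and Ndrg1 went from 59.6 ± 3.11 to 32.2 ± 1.25 CPM. Loxl2 and P4ha1 (416 ± 25.1 to 586 ± 32.1 CPM), which are collagen enzymes as well, rose.

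The cell division genes fell together and by small amounts. Of 55 tested genes of mitosis and cytokinesis 54 were lower and 0 higher, all short of the test against a fold of 1.5, with a median log2 fold change of -0.43. Pttg1, the inhibitor of separase, was the one that did not pass (log2 -0.17 ± 0.12). Cdc20, an activator of the anaphase-promoting complex, was at 98.8, 107 and 106 CPM at 96 h and 67.2, 66.6 and 67.6 CPM at 240 h. Ncapd2, a condensin subunit, was at 149, 152 and 144 CPM at 96 h and 101, 102 and 99.8 CPM at 240 h. Cdk1, the mitotic kinase, was at 84.3, 80 and 83.6 CPM at 96 h and 57, 58.2 and 58.5 CPM at 240 h. In each of the 3 genes all 240 h libraries lay below all 96 h libraries, and 45.7% of all tested genes also had no overlap. The share of counts from the list was 0.363% ± 0.0124 and 0.249% ± 0.00307. Mki67, the proliferation antigen, was at 216 ± 20.6 CPM at 96 h and 171 ± 11.1 CPM at 240 h.

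Genes of DNA replication and G1/S had 32 of 53 members lower and 0 higher, with a median of -0.27. Ccna2, the cyclin of S phase, went from 101 ± 2.42 to 73.9 ± 1.45 CPM, and thymidine kinase Tk1 from 40.7 ± 1.07 to 26.3 ± 1.73 CPM. Per kilobase of exon, the 2 subunits of ribonucleotide reductase had the highest levels of the list. Rrm2, the S phase subunit, went from 56 to 43.4 RPKM and passed, and Rrm1 was at 52.7 and 51.9 RPKM and did not. Among kinesins, the microtubule motors, 19 of 36 were lower and 7 higher. The mitotic motors Kif20a (log2 -0.58) and Kif22 (log2 -0.58) fell, and the transport motor Kif5b (log2 0.43) and Kif26b (log2 1.24) rose. Of 20 centromere proteins 13 were lower and 0 higher, among them the centromeric histone Cenpa (45 ± 0.776 to 31.7 ± 2.25 CPM).

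The promoter of Cdk1 illustrates the letters common in this list. From RefSeq and GRCm38.p6, it is chr10:69352913-69353130 on the minus strand, printed in the direction of the gene and ending upstream of the start. Capitals mark the cell cycle homology region (CHR), TTTGAA, at 71 and 15 bases before the start, and 3 CCAAT boxes as ATTGG at 208, 80 and 48 bases.
Cdk1: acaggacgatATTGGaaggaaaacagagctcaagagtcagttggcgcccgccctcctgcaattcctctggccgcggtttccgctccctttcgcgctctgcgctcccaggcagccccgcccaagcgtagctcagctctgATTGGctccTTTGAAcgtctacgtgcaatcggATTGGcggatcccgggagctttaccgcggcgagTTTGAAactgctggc
The CHR was searched as TTTGAA or TTCGAA, on both strands. It was present in 38 of 48 windows of the mitosis list (79.2%), against 19.2% of all promoters and 13.7% of the promoters of tested genes, and in 11 of 52 windows of the replication list (21.2%). For the E2F core, searched as TTTCCCGC or GGCGGGAA, which overlap when read on opposite strands, the order was the other way round. It was present in 11 of 52 replication windows (21.2%) and 1 of 48 mitosis windows (2.08%), against 2.73% of all promoters and 4.87% of those of tested genes. CCAAT was present in 72.9% of mitosis and 63.5% of replication windows, near the 78.9% of the sterol list. The letters were not confined to lists that fell. The histone list had 13 of 32 tested members higher and 4 lower at 240 h. Of its 68 windows 29 (42.65%) held the CHR and 56 (82.35%) held CCAAT.

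Inhibitors of the cycle moved in both directions. Cdkn1a, which encodes p21, was at 373, 396 and 386 CPM at 96 h and 606, 625 and 599.5 CPM at 240 h. Cdkn2a, which encodes p16 and p19ARF and whose transcripts the counts do not separate, was at 91.1, 124 and 112 CPM at 96 h and 166, 171 and 172 CPM at 240 h. Both were higher in every 240 h library, 1.59-fold and 1.57-fold, and 45.7% of all tested genes also had no overlap between the times. Cdkn1c fell, as above, as did Cdkn1b (52 ± 1.97 to 35.1 ± 2.52 CPM), Cdkn2d (25.4 ± 1.09 to 16.4 ± 0.425 CPM) and Cdkn2c (11 ± 1.13 to 7.57 ± 0.148 CPM). Cdkn2b was at 107 ± 6.80 CPM at 96 h and 111 ± 5.90 CPM at 240 h and did not pass (log2 0.06 ± 0.06). Of G1 cyclins, their kinases and pocket proteins 5 of 16 were higher and 1 lower: Ccnd2 rose from 617 ± 21.8 to 996 ± 52.6 CPM and Cdk4 fell (log2 -0.27).

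Targets of p53, the factor that links DNA damage to arrest, had 13 of 29 members higher and 1 lower. Perp, an adhesion protein of desmosomes, was at 7.67, 7.73 and 7.02 CPM at 96 h and 28.2, 32.3 and 28.6 CPM at 240 h, the largest rise of the list, and Mdm2, the ligase that degrades p53, rose from 146 ± 5.90 to 203 ± 8.31 CPM. Sesn1 fell (log2 -0.48). Of 24 tested genes of the senescence-associated secretory list 10 were higher and 5 lower. Plau, the urokinase plasminogen activator, went from 100.3 ± 7.86 to 173 ± 16.9 CPM and Igfbp7 from 628 ± 57.7 to 1048 ± 75.5 CPM, while Igfbp5 (log2 -0.42) and Hgf (log2 -0.71) fell. Interleukin Il6, a defining member, was at 3.39 ± 0.572 CPM at 96 h and 2.46 ± 0.1 CPM at 240 h and did not pass. In the lamina and high mobility group list 13 of 21 were lower and 2 higher, with the B-type lamin Lmnb1 at 101, 109 and 113 CPM at 96 h and 71.2, 69.6 and 74.2 CPM at 240 h and Lmna (log2 0.14 ± 0.04) slightly higher, but not past the threshold with library totals (log2 0.02) or 240 h replicate 3 alone (0.14).

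Histone genes parted by class. Of the 24 tested replication-dependent genes, out of 62 in the table, 13 were higher and 0 lower, among them H2bc4 (47.2, 52.6 and 54.2 CPM at 96 h and 62, 69.9 and 68.5 CPM at 240 h) and the linker histone H1f2 (63.7 ± 3.31 to 81.6 ± 2.75 CPM). Of 7 genes listed here as replacement histones, which are not made in S phase alone, 4 were lower and 0 higher. Among them were H1f0 (222 ± 12.3 to 164 ± 7.20 CPM) and H2ax (84.4 ± 5.49 to 53.2 ± 5.42 CPM). This division was made after the values had been seen and is given as a description. Replication-dependent histone transcripts mostly lack a poly(A) tail, so a kit that selects polyadenylated RNA captures a part of them, and near-identical copies make the counts of single genes uncertain. The replication genes above went the other way from these histone genes.

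**Figure D4:**
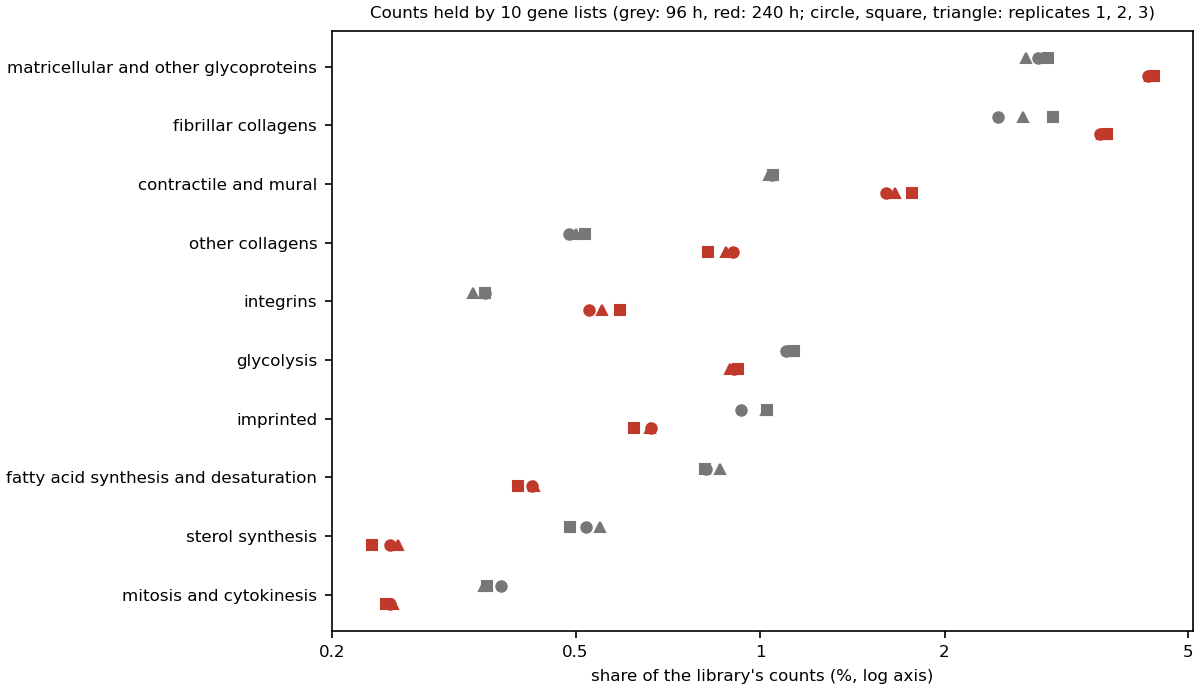
Share of each library's counts held by 10 gene lists, in percent on a log axis, with 96 h in grey and 240 h in red and replicates 1, 2 and 3 as circle, square and triangle. The matrix, contractile and integrin lists lie to the right at 240 h and the glycolysis, imprinted, lipid and mitosis lists to the left, with no overlap between the times in any of the 10.

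Imprinted genes, which are expressed from the allele of 1 parent and many of which drive fetal growth, had 13 of 24 members lower and 2 higher. H19 was at 1909, 2422 and 2291 CPM at 96 h and 607, 556 and 559 CPM at 240 h. Its neighbour Igf2, the fetal growth factor, was at 806, 1236 and 1087 CPM at 96 h and 237, 281 and 258 CPM at 240 h. They were 3.85-fold and 4.03-fold lower, with all 240 h libraries below all 96 h libraries. Of all tested genes 45.7% also had no overlap. The transcription factor Plagl1 went from 49 ± 2.26 to 22.6 ± 1.30 CPM and Peg3 from 246 ± 7.17 to 146 ± 7.20 CPM. Cdkn1c, Mest (45.6 ± 13.2 to 15.2 ± 3.02 CPM) and Magel2 (2.41 ± 0.935 to 0.311 ± 0.193 CPM) were also lower, and Igf2r, which clears IGF2, was higher (log2 0.29). Dlk1 (237 ± 36.5 to 223 ± 29.5 CPM) and Gnas (1668 ± 78.6 to 1599 ± 34 CPM) did not pass. The list held 0.993% ± 0.0547 of counts at 96 h and 0.649% ± 0.0220 at 240 h. Among other genes of the insulin-like growth factor system Pappa, the protease that frees IGF from its binding proteins, rose from 54 ± 6.04 to 151 ± 16.2 CPM, and the list as a whole had 6 of 20 members higher and 7 lower.

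Hox genes, which keep a fibroblast's position along the body axis, had 9 of 31 members lower and 2 higher, and 7 of the 9 lay in the HoxA cluster. Of 10 tested genes of the HoxA cluster 7 were lower and 0 higher, with a median log2 fold change of -0.99. In the HoxB, HoxC and HoxD clusters, 0 of 8, 1 of 8 and 1 of 5 were lower, and the medians were -0.05, -0.11 and 0.09. Hoxa5 was at 26.4, 32.7 and 29.7 CPM at 96 h and 11.9, 11.4 and 10.9 CPM at 240 h. Hoxa7 was at 16, 20.3 and 16.1 CPM at 96 h and 8.49, 7.47 and 8.78 CPM at 240 h. In both all 240 h libraries lay below all 96 h libraries, and 45.7% of all tested genes also had no overlap. Hoxa2, Hoxa3, Hoxa4, Hoxa6 and Hoxa9 fell by 0.94 (Hoxa3) to 1.02 (Hoxa2) on the log2 scale. The distal Hoxa10 (log2 -0.82 ± 0.35) and Hoxa11 (log2 -0.70 ± 0.28) did not pass, though both were called lower with the replicate block (log2 -0.69 and -0.55). Hoxa11 was also called lower with library totals (log2 -0.83), in DESeq2 (-0.68), with only DMSO libraries (-0.70) and without 96 h replicate 3 (-0.85). Hoxa4 missed the threshold with 240 h replicate 3 alone (-0.82). With replicate 3 alone the HoxA median was -0.998. The split by cluster was made after the values had been seen, and whether the clusters differ was not tested.

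The Hedgehog pathway had 10 of 14 members lower (71.4%) and 1 higher (7.14%), against 17.3% and 17.5% over all tested genes. The 1 was Gli3 (log2 0.24, or 0.12 and short of the threshold with library totals). The pathway's receptor and target Ptch1 was at 13.9 ± 2.10 CPM at 96 h and 9.74 ± 0.0939 CPM at 240 h. The signal transducer Smo fell (log2 -0.24) and the co-receptor Boc went from 40.3 ± 1.44 to 27.1 ± 3.97 CPM. TGF-beta and BMP genes went both ways, with 15 of 41 higher (36.6%) and 12 lower (29.3%). The ligands Tgfb1 (50.8 ± 3.87 to 78.6 ± 2.68 CPM) and Tgfb2 (25.2 ± 4.22 to 56.5 ± 8.38 CPM) rose. Gdf10 (13 ± 2.08 to 3.52 ± 0.476 CPM) and the inhibitory Smad6 (50.4 ± 1.88 to 30.1 ± 1.94 CPM) fell. The Wnt list had 13 of 48 members in each direction (27.1% each). Wnt9a (10.3 ± 1.00 to 21 ± 0.973 CPM) and Kremen1 (log2 0.56) rose. The agonist Rspo2 (35.2 ± 0.617 to 13.9 ± 2.37 CPM) and the binding protein Sfrp2 (18 ± 2.68 to 5.45 ± 0.842 CPM) fell. Of FGF and PDGF genes 8 of 30 (26.7%) were higher and 3 (10%) lower. The receptors of PDGF parted, with Pdgfrb, the one of mural cells, higher (397 ± 22.2 to 504 ± 15.8 CPM) and Pdgfra, the one of interstitial fibroblasts, lower (287 ± 11.8 to 201 ± 10.4 CPM).

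The immune lists differed in their share of lower members, which was 17.3% over all tested genes. Of complement and acute phase genes 11 of 17 (64.7%) were lower and 1, Serping1 (37.7 ± 5.87 to 50.6 ± 6.11 CPM), higher. Haptoglobin Hp was at 2.95, 4.39 and 3.70 CPM at 96 h and 0.142, 0.136 and 0.0401 CPM at 240 h, where the 240 h values stand for 1 count each. Ceruloplasmin Cp was at 15.6 ± 2.29 CPM at 96 h and 4.95 ± 1.37 CPM at 240 h and clusterin Clu at 7.09 ± 1.11 CPM at 96 h and 2.14 ± 0.115 CPM at 240 h. Of the interferon response 11 of 36 (30.6%) were lower, 1 was higher and 24 did not pass, with Stat2, the mediator of type I signals, at 63, 64.4 and 76.2 CPM at 96 h and 39.5, 34.1 and 38 CPM at 240 h. Among antigen presentation genes 3 of 15 (20%, near the share over all genes) were lower and 1 higher: the class I gene H2-K1 fell (44.9 ± 1.98 to 25.8 ± 0.819 CPM) and H2-T23 rose (12.1 ± 1.16 to 26.1 ± 1.90 CPM), and reads of these near-identical genes may be shared. Chemokines, interleukins and receptors had 13 of 57 higher (22.8%) and 11 lower (19.3%), against 17.5% and 17.3% over all genes. Cxcl12, the attractant that fibroblasts make for blood stem cells, was at 440.3, 535 and 529 CPM at 96 h and 219, 218 and 219.5 CPM at 240 h, and its scavenger receptor Ackr3 went from 47.3 ± 7.17 to 17.2 ± 1.54 CPM. Macrophage markers, of which 3 of 6 were above the floor of 3 counts in every library, were at 11 to 12.3 CPM in sum at 96 h and at 7.3 to 7.74 CPM at 240 h. Their part in these falls was not tested.

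Stress and translation lists shifted little. Of the integrated stress response and amino acid supply 18 of 36 were higher and 6 lower, 0 of them past a fold of 1.5, and 8 higher and 9 lower with library totals. Those that rose included Atf5 (395 ± 2.77 to 516 ± 29.4 CPM) and Nars (376 ± 19.1 to 486 ± 19.2 CPM), and the amino acid carriers Slc38a2 (log2 -0.37) and Slc1a5 (log2 -0.37) fell. Ribosome assembly factors had 17 of 41 higher and 0 lower, with a median of 0.14, and 9 of 20 aminoacyl-tRNA synthetases were higher and 1 lower. With library totals these counts were 10 higher and 3 lower, and 3 higher and 4 lower. The unfolded protein response had 6 of 28 higher (21.4%) and 4 lower (14.3%), against 17.5% and 17.3% over all genes. Heat shock genes had 6 of 23 higher (26.1%) and 2 lower (8.7%), with the inducible Hspa1b at 110.4 ± 7.22 CPM at 96 h and 167 ± 8.95 CPM at 240 h. Targets of NRF2 had 4 of 27 higher and 8 lower, the latter including the NADPH enzymes Pgd (log2 -0.45) and Tkt (log2 -0.39).

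Much of the core machinery lay below the share of calls over all genes, which was 17.5% higher and 17.3% lower. Cytosolic ribosomal proteins had 5 of 85 members in each direction, nuclear respiratory chain genes 4 of 82 higher and 5 lower, mitochondrial ribosomal proteins 1 of 78 higher and 6 lower, and the proteasome 2 of 45 higher and 7 lower. The medians of these 4 lists lay between -0.05 and 0.02. With library totals 18, 28, 25 and 24 of their members were lower. Of 13 mitochondrially encoded genes 1 was lower. The spliceosome had 17 of 76 lower (22.4%, above that share) and 2 higher (2.63%). Zfp genes had 41 of 350 lower (11.7%) and 26 higher (7.43%). Solute carriers were near the background, with 38 of 210 higher (18.1%) and 45 lower (21.4%). Among them Slc5a7, the choline transporter, was at 15.8, 14.9 and 14.3 CPM at 96 h and 48.2, 48.9 and 50.5 CPM at 240 h. Ion channels had 21 of 77 higher (27.3%) and 24 lower (31.2%). Cacna1g, a calcium channel opened at low voltage, was at 23.5, 25.1 and 27.2 CPM at 96 h and 92.5, 85.9 and 103 CPM at 240 h. Of G protein-coupled receptors 23 of 84 (27.4%) were higher and 16 (19.05%) lower. Those that rose included the adhesion receptor Adgre5 (102 ± 7.51 to 219 ± 10.2 CPM) and the thrombin receptor F2r (451 ± 16.4 to 726 ± 33.1 CPM). Keratins, at low levels, had 5 of 7 lower and 1, Krt20, higher (log2 0.55). Krt20 was short of the threshold without 96 h replicate 3 (log2 0.42) and with 240 h replicate 3 alone (0.52). Krt19 was at 24.6 ± 0.456 CPM at 96 h and 13.5 ± 0.750 CPM at 240 h. The 6 epithelial markers, 2 of them tested in this list, summed to 2.63 to 4.54 CPM at 96 h and 1.27 to 2.21 CPM at 240 h. The mesothelial sums given above, at 96 h mostly Msln, were likewise lower at 240 h. The part of such cells in the keratin counts was not tested.

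Gene length went with direction. In the fifth of tested genes with the longest exons, a median of 6308 bp, 27.9% were higher and 16.1% lower at 240 h. In the fifth with the shortest, a median of 1085 bp, the shares were 11.1% and 14.3%. The median log2 fold changes of these groups were 0.05 and -0.04. Long genes also collect more counts and are called more readily, and matrix genes are long. The part of length in the results was not tested.

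The WM-2474 libraries, which share no library with the DMSO comparison, give the same contrast of times. Both contrasts came from 1 fit of all 12 libraries with a shared estimate of the spread, so their calls are not fully independent. Any difference in handling between the times would be part of both contrasts and cannot be told apart from time. With WM-2474, 2147 genes were higher (15.9%) and 1999 lower (14.8%). Of the genes higher in DMSO, 1680 (71.1%) were also called higher with WM-2474, which is 78.3% of the WM-2474 calls. Of those lower in DMSO, 1538 (66%) were called lower, which is 76.9% of the WM-2474 calls. No gene was called in opposite directions. Across the 13499 genes, which are not independent replicates, the log2 fold changes had a Pearson correlation of 0.85. Of the 451 genes past a fold of 1.5 in DMSO, 450 had the same sign. The list medians with WM-2474 were 1.06 for contractile, -0.998 for sterol synthesis, -0.53 for mitosis and 0.64 for fibrillar collagens. With 240 h replicate 3 alone in DMSO they were 0.95, -0.9997, -0.42 and 0.52. A test of the difference between the 2 time changes called 0 genes in edgeR, with a smallest adjusted p of 0.977. An unadjusted p under 0.05 was reached by 625 of the 13499 genes, fewer than that threshold alone would give with no difference. The lack of calls does not show that the changes were equal.

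**Figure D5:**
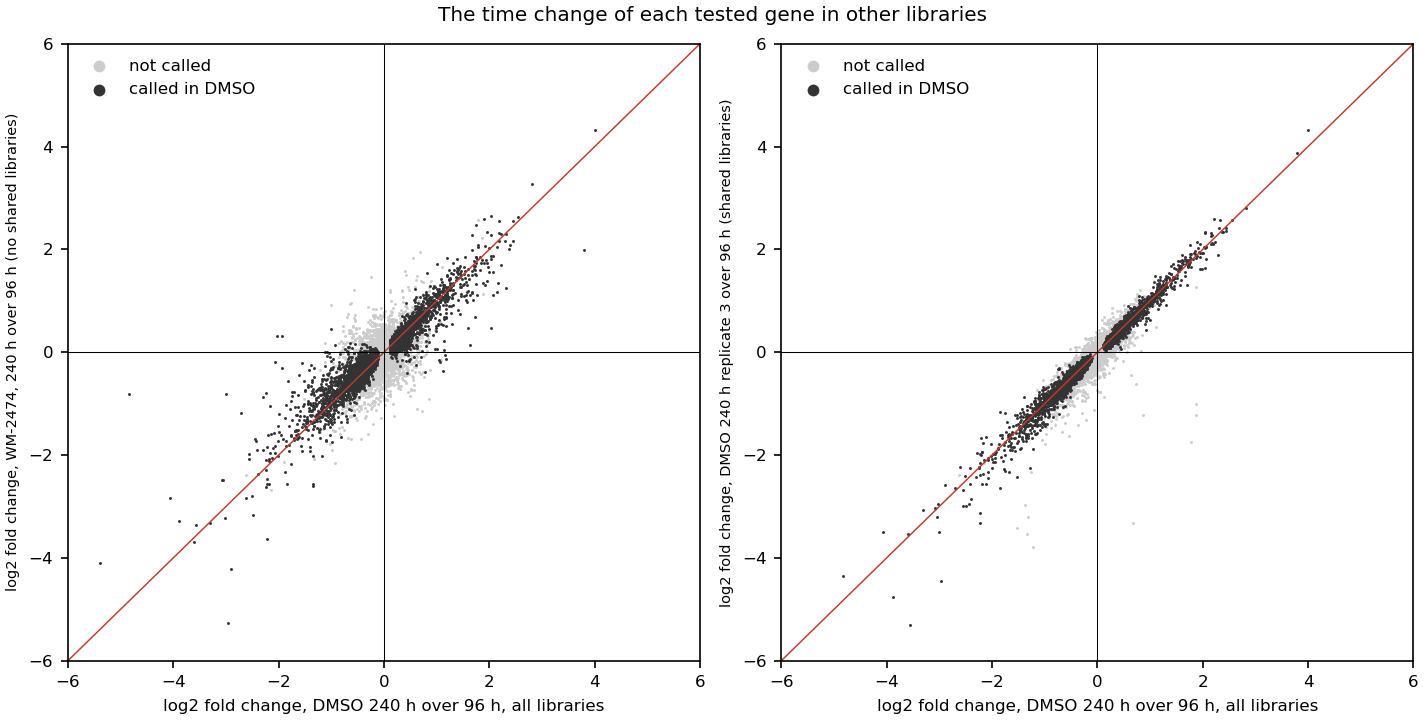
Log2 fold change of each tested gene in DMSO with all libraries (horizontal axes) against that with WM-2474, which shares no libraries (left), and against that with 240 h replicate 3 alone, which shares libraries (right); black points are genes called in DMSO, grey ones the rest, and the red line marks equality. Called genes lie along the line in both panels.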

How the data were processed

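The authors deposited whole-number read counts per gene for 12 libraries; per the labels' protocols the library kit was for stranded mRNA, and the submitters' processing notes name featureCounts and the mm10 build. Strand and multi-mapping settings are not given in the sources used here. The authors' count table was used as deposited, with every sample column matched (0 unmatched). Entries without a gene identifier, 0.549 to 0.633% of the DMSO libraries, were left out.

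Counts were fitted with edgeR 4.0.16 (R 4.3.3): filterByExpr, TMM factors, robust quasi-likelihood over all 12 libraries with 1 coefficient per group, and Benjamini-Hochberg adjustment over 13499 genes at 0.05. A second test was against a fold of 1.5 (glmTreat). The ± after a mean is SD (n = 3) and after a log2 fold change its standard error. P-values measure the spread between these cultures only. RPKM divides by the deposited gene length. Common dispersion gave a coefficient of variation of 5.22%. The fit was tested on simulated data. Every pair of replicates differed by more than counting noise. List shares were compared by two-sided exact permutation in scipy 1.17.1.

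The gene lists and named genes were chosen with earlier results of these data known. Named were 4 markers; the 12 largest rises and falls past the test with at least 5 CPM in 1 group and no overlap; the 6 largest gains and losses in CPM; and in each list the 2 rising and 2 falling members of smallest p and those of highest level per length. Outside this rule, 33 genes were chosen after their values were seen: Abcc9, Actg2, Cdk1, Cdkn2c, Ddx3y, Dhcr7, Dlk1, Hey1, Hoxa2, Hoxa3, Hoxa4, Hoxa6, Hoxa9, Hoxa10, Hoxa11, Hp, Il6, Magel2, Mdm2, Mest, Mki67, Myh11, Notch1, Notch3, Nrarp, Ptch1, Pttg1, Sqle, Srebf1, Srebf2, Tgfb2, Tm7sf2 and Xist. Alternatives were other size factors, filters, DESeq2 1.42.0, limma-voom 3.58.1, a replicate block, DMSO libraries only, thinning to 7313007 counts, 240 h replicate 3 alone and leaving out each library. Some members of the lists are not reported here by name.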

Additional observations from a re-analysis of the deposited data

How the results depend on the processing

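Counts of genes higher and lower were 2364 and 2330, and all settings but library totals kept the direction of every called gene. With library totals 14 of the 4694 changed sign, and the counts were 1190 and 4381, the shift coming from the factors left out. With 240 h replicate 3 alone they were 1468 and 1383, where 1 library stands for its group and is assumed to vary like the others. Leaving out each library in turn gave 1866 to 2334 and 1724 to 2259. Past a fold of 1.5 the counts of 224 and 227 became 149 and 126 in DESeq2, and 177 to 216 and 149 to 219 on leaving out a library; the lowest, 149 lower, came without 240 h replicate 3, the deepest.

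With the replicate block the counts were 2458 and 2446, or 2533 and 2521 with DMSO libraries only. Deviations of same-numbered libraries correlated by 0.0557, 0.0950 and 0.1316, so the numbers were not taken to pair the samples; all 6 libraries correlated best with their own number, a hint from the data and not from the design.

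Contractile members lower were 1, against 2 with library totals, limma-voom and the replicate block, 0 in DESeq2 and after thinning, and 0 to 2 on leaving out a library. Their median log2 fold change of 0.96 was 0.83 with library totals and 0.92 to 0.99 on leaving out a library. Fibrillar collagens lower were 0, or 1 with the replicate block (all or only DMSO libraries). Their median of 0.54 was 0.42 with library totals, 0.61 with the replicate block, 0.59 with only DMSO libraries and the block, and 0.51 to 0.62 on leaving out a library. With library totals the medians were -1.16 for sterol synthesis and -0.55 for mitosis. The cause of these differences was not tested, apart from the shift above.

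Of 214 named genes over all settings, 3560 of 3637 values kept side and direction, 49 lost and 21 gained the call, and 7 values of genes that had not passed changed sign. They were Actb (-0.0658) and Cdkn2b (-0.0653) with library totals, Dlk1 (0.00717) and Xist (-1.22) with replicate 3 alone, Dlk1 on leaving out a library (-0.148 to 0.0516) and Rrm1 likewise (-0.0392 to 0.00123). Of 1088 medians of the 64 lists over these settings 23 changed sign, 0 of them in the 19 lists whose median exceeded 0.3 in size. The floor of 3 counts, 0.115 to 0.41 CPM, limits genes near it.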
